A study of Homo sapiens with 9 samples.

Results

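The kinases described here form the Hippo and NDR kinase group. They are STK3, STK4, LATS1, LATS2, STK38, STK38L, MAP4K4, TAOK1, TAOK2 and TAOK3, listed by their place in the pathway and not by a threshold on their counts. Of these 10 genes, 9 had rows in the screen's table and STK38 had none. The table held 3152 single guide RNAs (sgRNAs), of which 100 were non-targeting and the others came as 4 per gene. The members carried 36 of them, and all 36 passed the minimum of 30 mean reads. The question asked of them was whether loss of kinases that restrain growth gave a gain.

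The Hippo pathway restrains cell growth and organ size. MST kinases (the products of STK3 and STK4) phosphorylate LATS kinases, and LATS kinases phosphorylate the coactivators YAP and TAZ, which are then kept out of the nucleus and degraded. MAP4K4 and the TAO kinases act upstream, the former on LATS and the latter on MST or LATS, while the NDR kinases (the products of STK38 and STK38L) are close relatives of LATS. In rhabdomyosarcoma, a childhood tumor with skeletal muscle features, YAP activity and loss of MST signaling have been linked to tumor growth in earlier work.

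The screen used RH4, 1 human fusion-positive rhabdomyosarcoma line driven by the PAX3::FOXO1 fusion. The Brunello kinome library of sgRNAs for Cas9 was delivered by lentivirus. The read share of an sgRNA in genomic DNA follows the share of cells carrying it. Cells were infected at a coverage of 1000 cells per sgRNA, and puromycin (0.25 µg/ml) was added 48 h later and kept for 72 h, after which the baseline samples were taken. The other cultures recovered for 72 h, then grew for 10 days in vehicle or in 1.5 nM pralatrexate, an antifolate, and were passaged every 4 days. There were 3 libraries of each group, and all 9 came from the same line with the same library. The study's text gives a longer selection than its methods, and it calls the repeats both cultures and technical replicates. The spread that the p-values are based on is thus that between libraries, and it may be technical in origin. No RNA, protein or YAP readout was part of these counts, so neither the expression of the kinases in RH4 nor the efficiency of any sgRNA is known from them.

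Libraries held 2468136 to 4602712 reads. Within groups the log2 CPM (reads scaled to library size) correlated across sgRNAs at 0.931 to 0.959, with sgRNAs no independent replicates, and the coefficient of variation between libraries of a group was 13.2%. Member sgRNAs had mean reads from 507 (TAOK3) to 2676 (TAOK1), so counting error was small beside the spread between libraries. Log2 fold changes of a gene are averages of its 4 sgRNAs, given ± the SD of these sgRNAs. A gene was called by rank aggregation of edgeR quasi-likelihood p-values, with the false discovery rate (FDR) taken over all genes tested and a threshold of 0.05.

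The genes lie on different chromosomes for the most part, and the spans below are on GRCh38. The guide sequences were not used here, so no cut site was placed within a gene. STK3 spans chr8:98371228-98942827 on the minus strand, and KCNS2 lies within it on the other strand. STK4 spans chr20:44966494-45080021 on the plus strand. LATS1 spans chr6:149658153-149718105 and LATS2 chr13:20973036-21061586, both on the minus strand. STK38L spans chr12:27243968-27325959 on the plus strand, and TAOK3 lies on the same chromosome at chr12:118149801-118372907 on the minus strand. MAP4K4 spans chr2:101696850-101894690, TAOK1 chr17:29390363-29551903 and TAOK2 chr16:29973868-29992261, all on the plus strand. No protein-coding gene overlapped the members other than STK3.

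Growth without drug was read by setting vehicle at day 10 against baseline. None of the 9 kinases was enriched and none was depleted by rank aggregation. Over all genes 0.393% were enriched (3 genes) and 6.68% were depleted (51 genes). At an unadjusted p of 0.05 the member count was also 0 in each direction, against 60 enriched and 115 depleted genes over the table. For scale, 1 gene is 0.131% of all genes tested. The member median was 0.071, the median of all genes was 0.018, and the 9 members ran from −0.21 for TAOK3 to 0.22 for STK3.

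Among the core kinases, STK3, which encodes MST2, stood at 8.57, 8.54 and 8.61 log2 CPM in the baseline libraries. It stood at 8.85, 8.76 and 8.76 in the vehicle libraries and at 8.76, 8.72 and 8.74 in the pralatrexate libraries. All 6 day 10 libraries of STK3 lay above all 3 baseline libraries. The change from baseline to vehicle was 0.22 ± 0.11 (SD, 4 sgRNAs), or 1.17-fold, with an FDR of 0.685 for enrichment by rank aggregation.

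The MST1 kinase is encoded by STK4. STK4 stood at 8.49, 8.47 and 8.32 log2 CPM at baseline, at 8.55, 8.63 and 8.52 in vehicle, and at 8.74, 8.54 and 8.75 in pralatrexate. The baseline libraries lay below the day 10 libraries, while vehicle and pralatrexate overlapped. The change to vehicle was 0.14 ± 0.23, with 3 sgRNAs above 0 and 1 at −0.18. Baseline and vehicle libraries separated upward for STK3 and STK4, 2 of 9 members, where 19.5% of all genes did so.

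LATS1, which phosphorylates YAP, stood at 8.32, 8.34 and 8.39 log2 CPM at baseline. Its vehicle libraries stood at 8.60, 8.61 and 8.35, and its pralatrexate libraries at 8.64, 8.56 and 8.59. Vehicle 3 lay within the baseline range and the other vehicle libraries above it. The change to vehicle was 0.19 ± 0.080, with all 4 sgRNAs above 0 and an FDR of 0.636. LATS2, its paralog, had baseline levels from 8.21 to 8.46 and vehicle levels from 8.29 to 8.58, which overlapped, and stood at a change of 0.071 ± 0.12 (FDR 1).

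**Figure D1:**
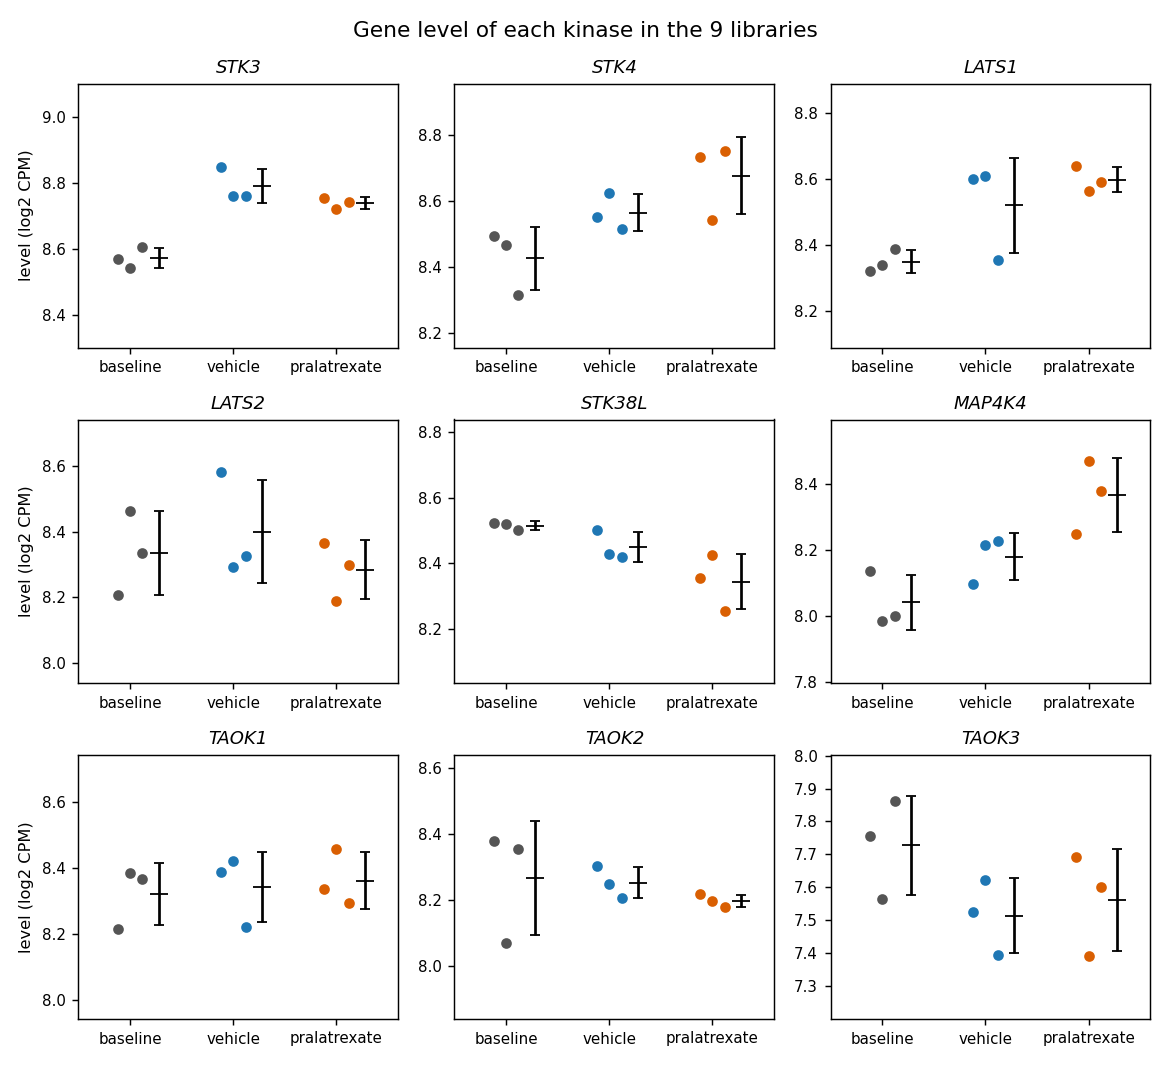
Gene level of each of the 9 kinases in each library, as the mean log2 CPM of its 4 sgRNAs (vertical axes, all of the same span but with different starts). Points are libraries of baseline, vehicle and pralatrexate, bars are mean ± SD (n = 3), and STK3 and STK4 have all vehicle points above all baseline points while those of TAOK1, TAOK2 and LATS2 overlap.

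Of the upstream kinases, MAP4K4, which can phosphorylate LATS, stood at 8.14, 7.99 and 8.00 log2 CPM at baseline. It stood at 8.10, 8.21 and 8.23 in vehicle, where vehicle 1 lay within the baseline range. Its change was 0.14 ± 0.053 with all 4 sgRNAs above 0. TAOK1 had a change of 0.018 ± 0.12 and TAOK2 one of −0.012 ± 0.18, each with 2 of 4 sgRNAs below 0.

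TAOK3, the remaining TAO kinase, had the lowest value. It stood at 7.75, 7.56 and 7.86 log2 CPM at baseline and at 7.53, 7.62 and 7.40 in vehicle, and the groups overlapped through baseline 2 and vehicle 2. All 4 of its sgRNAs were below 0, at −0.44, −0.0089, −0.038 and −0.35, which gave −0.21 ± 0.22 and an FDR of 1 for depletion. STK38L, which encodes NDR2, had a change of −0.063 ± 0.24. Its sgRNAs split, with 3 below 0 and 1 at 0.28.

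Single sgRNAs were tested as well. Of the 36 member sgRNAs, 2 were higher and 0 lower in vehicle than at baseline at an FDR of 0.05, where 6.26% of all sgRNAs were higher and 12.8% lower. Both were STK3 sgRNAs, at 0.32 ± 0.10 (SE; edgeR FDR 0.029) and 0.30 ± 0.10 (FDR 0.0462). The other STK3 sgRNAs stood at 0.20 and 0.070. These calls rested on single libraries, since 0 member sgRNAs were higher without baseline 1, baseline 3 or vehicle 1, and 1 was higher without baseline 2 or vehicle 2.

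Aggregation by the mean in place of ranks gave some calls. By limma on gene means STK3 was higher (0.22, FDR 0.0157), 1 of 9 members where 9.04% of all genes were higher, and 0 members were lower, where 19.8% of all genes were. By edgeR on reads summed over the sgRNAs of a gene, STK3 (0.21), LATS1 (0.18) and STK4 (0.17) were higher, with FDR values of 0.00323, 0.0373 and 0.0461. That was 3 of 9 members where 17.2% of all genes were higher. TAOK3 was lower by the same test (−0.24, FDR 0.036), 1 of 9 where 20.6% of all genes were lower.

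These values depend on what counts as 0. The 99 non-targeting sgRNAs that passed the minimum match no site in the genome. They had a median of 0.31 in vehicle against baseline (SD 0.13, range −0.052 to 0.67), and 38 of them were higher by the test that called 2 member sgRNAs. Only 2 of 36 member sgRNAs lay above the non-targeting median, 1 of STK3 and 1 of STK4, and none lay above the highest non-targeting sgRNA. Below the lowest non-targeting sgRNA lay 8 member sgRNAs. The share of all sgRNAs below that mark or above the non-targeting median is not given here. The median of all sgRNAs was 0.016, and 1494 of 3046 gene sgRNAs lay below 0, as did 14 of the 36 member sgRNAs.

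**Figure D2:**
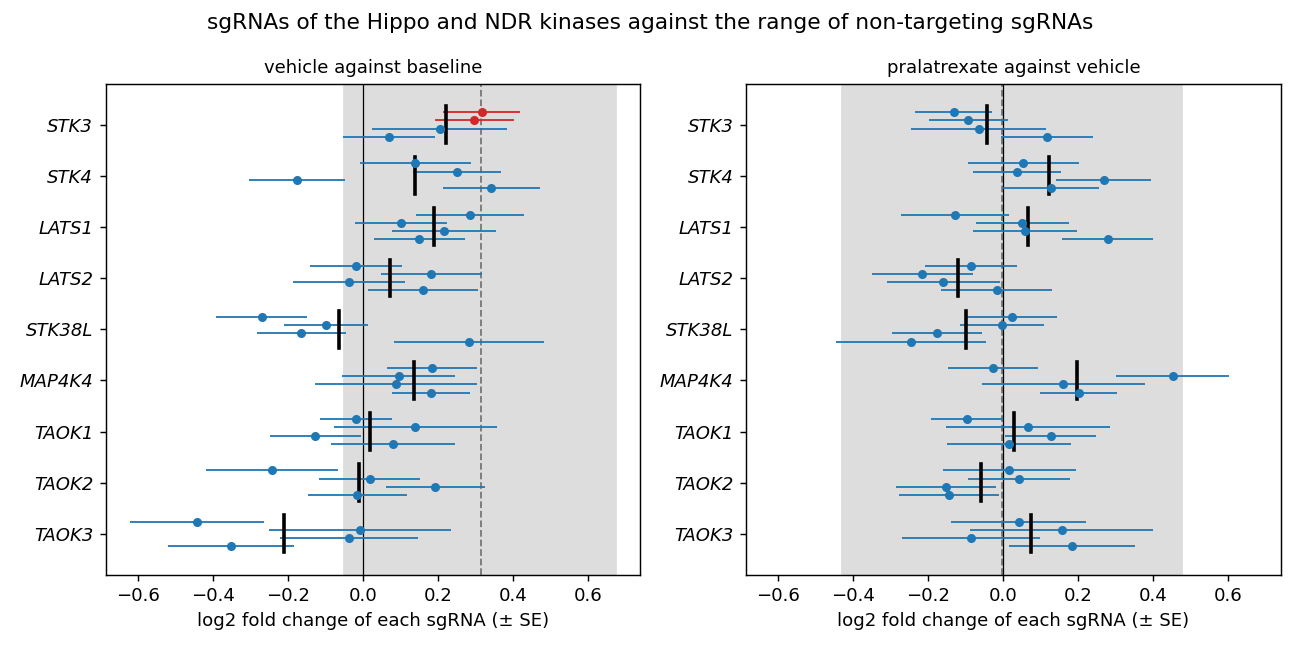
Log2 fold change of each member sgRNA ± SE (horizontal axis), vehicle against baseline at left and pralatrexate against vehicle at right, with a black bar at the gene mean and red points past an FDR of 0.05. Grey marks the range and the dashed line the median of 99 non-targeting sgRNAs, and in the left panel 34 of 36 member sgRNAs lie left of that line.

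Gene levels were therefore also set against the non-targeting median of each library and tested with limma. Relative to it 8 of 9 members were lower and 0 were higher in vehicle than at baseline, where 83.5% of all genes were lower and 0.131% higher. The exception was STK3, at −0.12 (95% interval −0.27 to 0.023, FDR 0.106). LATS1 stood at −0.17 (FDR 0.0434), MAP4K4 and STK4 at −0.20 each and LATS2 at −0.28. TAOK1 (−0.32), TAOK2 (−0.36), STK38L (−0.41) and TAOK3 (−0.55) lay lower. The share of lower members was near the share over all genes, and 1.05% of all genes (8) but none of the members had a value above the non-targeting median.

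The calls closest to the threshold turned on single libraries. The number of lower members was 5 without baseline 1 and 5 without baseline 2. LATS1 lost its call without any 1 baseline library or without vehicle 3, where it stood at −0.11 (FDR 0.187). STK4 lost it without baseline 1, baseline 2, vehicle 1 or vehicle 3, at −0.16 to −0.20. MAP4K4 lost it without baseline 1 (−0.15) or vehicle 1 (−0.15), and LATS2 without baseline 2 (−0.22). TAOK1, TAOK2, TAOK3 and STK38L remained lower without any 1 library of the comparison.

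A second reference was made of sgRNAs designed to cut, though their cutting was not measured. It was the median gene level of 27 kinases and related genes restricted to lymphoid, germline or photoreceptor cells, a choice made after the non-targeting result was seen. These genes stood at a median of 0.063 in vehicle against baseline, and at −0.30 relative to non-targeting sgRNAs. Whether Cas9 cutting itself, which non-targeting sgRNAs lack, moved with this gap was not tested.

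Relative to those genes, 1 of 9 members was lower and 0 were higher, where 27.5% of all genes were lower and 0.917% higher. The member was TAOK3, at −0.34 (95% interval −0.55 to −0.12, limma FDR 0.0189). The test was against the median of those genes only. Their own log2 fold changes ran from −0.34 to 0.33, a range that held all 9 members (−0.21 to 0.22). STK38L stood at −0.19 (−0.36 to −0.012, FDR 0.109). STK3 stood at 0.096 (−0.083 to 0.28) and LATS1 at 0.049 (−0.14 to 0.24). STK4 stood at 0.016 and MAP4K4 at 0.015, so that the values of LATS1, STK4 and MAP4K4 lay on opposite sides of 0 with the 2 references, as did that of STK3, which had no call with either.

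The intervals cover the spread between libraries in the mean read change against a chosen reference level. They do not cover the spread among sgRNAs or among reference genes, and sgRNA efficiency is not known. They thus do not bound the gain from loss of a kinase. The highest upper limit of any member was that of STK3, at 1.02-fold relative to non-targeting sgRNAs and 1.21-fold relative to the lymphoid, germline and photoreceptor genes. For comparison, 3 genes were enriched in vehicle by rank aggregation. They were CDK13, a kinase of transcription elongation, at 0.91 ± 0.13 (FDR 2.6e-06), and the paralogs GSK3B at 0.50 ± 0.21 (FDR 0.036) and GSK3A at 0.43 ± 0.24 (FDR 0.021), which restrain WNT signaling. By limma relative to non-targeting sgRNAs only CDK13 of these was higher, at 0.56 (interval 0.40 to 0.72, FDR 4.4e-06). GSK3B stood there at 0.15 (−0.021 to 0.33, FDR 0.092) and GSK3A at 0.077 (−0.081 to 0.24, FDR 0.334), without a call. Relative to the second reference CDK13 stood at 0.78 (0.61 to 0.94), GSK3B at 0.37 (0.19 to 0.55) and GSK3A at 0.29 (0.10 to 0.49). The interval of STK3 overlapped those of GSK3A and GSK3B and not that of CDK13.

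**Figure D3:**
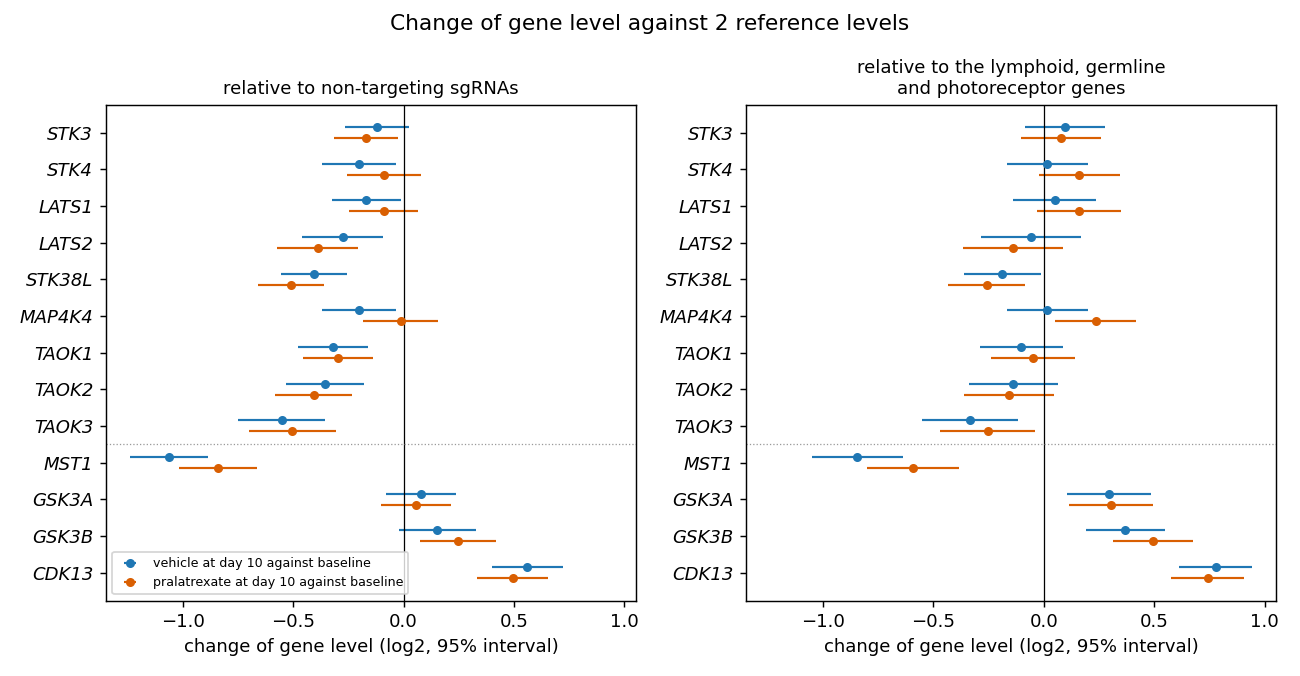
Change of gene level from baseline (log2, horizontal axes) with 95% intervals from limma, in vehicle (blue) and pralatrexate (orange), relative to non-targeting sgRNAs at left and to the lymphoid, germline and photoreceptor genes at right. Below the dotted line stand MST1 and the 3 enriched genes, and at left 8 of 9 kinases have a vehicle interval wholly below 0 while at right 2 do, STK38L and TAOK3.

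Response to the drug was read by setting pralatrexate against vehicle. Again 0 of 9 kinases were enriched and 0 depleted, where 0% and 0.524% of all genes were called (0 and 4 genes). By edgeR on summed reads the member counts were also 0, where 0.131% of all genes were higher and 0.786% lower. No member sgRNA of 36 was higher or lower, and over all sgRNAs 0% were higher and 0.0318% lower. The member median was 0.027 and that of all genes 0.0052. Non-targeting sgRNAs had a median near 0 here, and all 36 member sgRNAs lay within their range of −0.43 to 0.47.

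MAP4K4 had the highest value of the group. Its pralatrexate libraries stood at 8.25, 8.47 and 8.38 log2 CPM, all above the vehicle libraries at 8.10, 8.21 and 8.23. The groups thus did not overlap, as for 3.67% of all genes in this direction. The change was 0.20 ± 0.20, with sgRNAs at −0.028, 0.45, 0.16 and 0.20. Rank aggregation gave an unadjusted p of 0.0206 and an FDR of 0.748, and relative to non-targeting sgRNAs limma gave 0.19 (95% interval 0.020 to 0.36, FDR 0.794). MAP4K4 was the only member with an unadjusted p under 0.05 by rank aggregation. For enrichment 41 of all genes had one, where 1 gene is 0.131% of the total.

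No other member stood out by its test. STK4 stood at 0.12 ± 0.10, TAOK3 at 0.073 ± 0.12, LATS1 at 0.064 ± 0.17 and TAOK1 at 0.027 ± 0.095. Below 0 lay STK3 (−0.044 ± 0.11), TAOK2 (−0.060 ± 0.10), STK38L (−0.10 ± 0.13) and LATS2 (−0.12 ± 0.086, with all 4 sgRNAs below 0). The 3 pralatrexate libraries of STK3 lay just below the 3 vehicle libraries, as those of 3.41% of all genes did. Relative to non-targeting sgRNAs 0 members were lower and 0 higher, where 0.393% and 0.131% of all genes were, and 5 of 9 had a value above the non-targeting median, as 53.3% of all genes had. The upper limits of the 9 members ran from 1.03-fold (STK38L) to 1.28-fold (MAP4K4).

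Growth under the drug was read by setting pralatrexate against baseline, which shares its baseline libraries with the first comparison and its pralatrexate libraries with the second. None of the 9 was enriched or depleted, where 0.262% of all genes were enriched and 7.21% depleted. MAP4K4 stood at 0.33 ± 0.17 (FDR 0.414) and LATS1 at 0.25 ± 0.13 (FDR 0.552). Both had an unadjusted p under 0.05 for enrichment by rank aggregation, 2 of 9 members. In all 67 genes did, where 1 gene is 0.131% of the total. STK4 stood at 0.26 ± 0.16 and STK3 at 0.18 ± 0.028. STK38L had the lowest value, −0.16 ± 0.17, with libraries at 8.35, 8.42 and 8.26 log2 CPM in pralatrexate, below 8.52, 8.52 and 8.50 at baseline.

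By library, LATS1, MAP4K4, STK3 and STK4 lay wholly above baseline, 4 of 9 where 20.3% of all genes did. STK38L alone lay wholly below, where 25.6% of all genes did. Of the 36 sgRNAs 4 were higher and 1 lower, where 5.98% of all sgRNAs were higher and 13.1% lower. The higher ones targeted MAP4K4 (0.55 and 0.38), STK4 (0.47) and LATS1 (0.43), and the lower one STK38L (−0.34, edgeR FDR 0.0453). Without baseline 3 only 1 was higher, and the lower one lost its call without any 1 baseline library or without pralatrexate 2.

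By limma on gene means MAP4K4, LATS1 and STK4 were higher, 3 of 9 where 9.83% of all genes were higher, and 0 were lower, where 19.9% of all genes were. By edgeR on summed reads MAP4K4 (0.33), STK4 (0.29), LATS1 (0.25) and STK3 (0.18) were higher, 4 of 9 where 17.4% of all genes were. STK38L was lower by that test (−0.20, FDR 0.0151), 1 of 9 where 21.2% of all genes were lower. The non-targeting median was 0.34 in this comparison. Relative to it 6 of 9 members were lower and 0 higher, where 82% of all genes were lower and 0.262% higher.

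The members not lower relative to non-targeting sgRNAs were MAP4K4 (−0.013), STK4 (−0.088) and LATS1 (−0.089), and none of the 9 had a value above the non-targeting median, where 1.44% of all genes had. STK3 was lower (−0.17, FDR 0.029), and lost that call without baseline 1, baseline 3, pralatrexate 2 or pralatrexate 3, at −0.16 to −0.17. Relative to the lymphoid, germline and photoreceptor genes 1 member was lower, STK38L at −0.26 (limma FDR 0.0276), where 24.4% of all genes were lower. The log2 fold changes of the reference genes themselves ran from −0.34 to 0.36, a range that held STK38L (−0.16). No member was higher, where 1.31% of all genes were. MAP4K4 came nearest, at 0.24 (95% interval 0.053 to 0.42, FDR 0.0548), an upper limit of 1.34-fold.

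A row with a confusing name stood apart. The library row MST1 targets macrophage stimulating 1, a secreted ligand of a receptor kinase, and not STK4, whose protein is also called MST1. MST1 stood at 8.34, 8.32 and 8.19 log2 CPM at baseline and at 7.64, 7.51 and 7.53 in vehicle, with no overlap. It was not depleted by rank aggregation (−0.72 ± 0.59, FDR 0.148), although of its sgRNAs, at −0.17, −0.45, −0.73 and −1.53, those from −0.45 down were lower by edgeR (FDR 0.0368, 0.0021 and 2.0e-07). Relative to non-targeting sgRNAs it stood at −1.06 (limma FDR 2.26e-09), beside −0.20 for STK4. MST1 spans chr3:49683947-49689501, and the protein-coding gene APEH overlaps it on the other strand. The pseudogene copies MST1L and MST1P2 lie on chromosome 1. Whether the MST1 sgRNAs also cut APEH or the copies was not tested.

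Relatives of the members were followed as lists. The first held 12 other germinal centre kinases (MAP4K1, MAP4K2, MAP4K3, MAP4K5, MINK1, TNIK, NRK, STK24, STK25, STK26, STK10 and SLK), and 0 were enriched or depleted by rank aggregation in any of the 3 comparisons. Over all genes 6.68%, 0.524% and 7.21% were depleted and 0.393%, 0% and 0.262% enriched in vehicle against baseline, pralatrexate against vehicle and pralatrexate against baseline. Their median was 0.12 in vehicle against baseline, and MAP4K2 was the lowest at −0.27 ± 0.41. In this list 11 of 12 values lay above 0, beside 6 of 9 for the members. So did 414 of all genes, where 1 gene is 0.131% of the total. Of the 12 values 0 lay above the non-targeting median. In pralatrexate against vehicle their median was 0.021.

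The other list held 26 genes tied to the pathway or to YAP and TAZ, among them the polarity kinases of the MARK family, STK11, the junction proteins MAGI1 and MAGI3, the ROCK kinases and the SRC, YES1, ILK and PTK2 kinases of adhesion. Their medians were 0.063 in vehicle and 0.11 in pralatrexate, each against baseline, and 0.011 in pralatrexate against vehicle. In vehicle against baseline 0 of 26 passed the rank aggregation in either direction, where 6.68% of all genes were depleted and 0.393% enriched. In pralatrexate against baseline 1 of 26 passed, where 7.21% of all genes were depleted. PTK2, the focal adhesion kinase, which acts upstream of YAP in adherent cells, fell by 0.55 ± 0.14 there (FDR 0.0266), and stood at −0.55 ± 0.22 in vehicle (FDR 0.0735). PTK2 did not differ past the threshold between pralatrexate and vehicle (0.0039 ± 0.089, FDR 1).

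By the TMM-scaled average of its sgRNAs, STK3 had the largest absolute change of the members in vehicle against baseline (0.22, beside −0.21 for TAOK3). That order turned with the scale, since TAOK3 had the larger change by summed reads (−0.24 beside 0.21), relative to non-targeting sgRNAs (−0.55 beside −0.12) and relative to the lymphoid, germline and photoreceptor genes (−0.34 beside 0.096). Over the 9 libraries the gene levels most like that of STK3 were those of RPS6KA3 (r = 0.957), GSK3A (0.944) and PRKAR1B (0.930). These are descriptions over libraries of 3 groups, and the same libraries gave both values. Differences between members were not tested, but the vehicle intervals relative to non-targeting sgRNAs of STK3 (−0.27 to 0.023) and TAOK3 (−0.75 to −0.36) did not overlap. In the order STK3, LATS1, STK4, MAP4K4, LATS2, TAOK1, TAOK2, STK38L and TAOK3, set by the change to vehicle, each gene's interval overlapped that of its neighbors.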

How the data were processed

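The deposited count table holds raw reads per sgRNA, which the authors made from amplified sgRNA cassettes, with no normalization. The submitters' processing notes name Bowtie 1.0.0. Mismatches allowed and the counter were not given in the sources used here. No molecular identifiers are mentioned. The 2 deposited gene tables hold the authors' own log2 fold changes, scores and p-values and were not used. The members and gene lists were chosen with earlier results of these data known.

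Counts of 3145 sgRNAs with a mean of at least 30 reads (99 non-targeting) entered a fit by edgeR 4.0.16 in R 4.3.3 (TMM, quasi-likelihood, group as the only term, 9 libraries in 1 fit). One-sided p-values were ranked, and each gene's sgRNAs with a p under 0.25 gave a robust rank aggregation score. Its p was computed exactly for uniform ranks and adjusted by Benjamini and Hochberg over all genes. Gene levels (mean log2 CPM, prior count 2) relative to the non-targeting median of a library, or to the median of 27 reference genes, were tested with limma 3.58.1, two-sided, with 95% intervals.

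Named genes were all members, MST1, the 3 genes that earlier results called enriched (CDK13, GSK3A and GSK3B), any called gene of the 2 pathway lists, and the 3 genes most correlated with the member of largest absolute TMM-scaled change in vehicle against baseline (STK3). Gene spans came from GENCODE. Differences between libraries of the same group were 10.7 to 25.7 times sampling noise (chi-square per degree of freedom), so none was a copy of another. Same-numbered pralatrexate and vehicle libraries deviated together (r = 0.175, 0.198 and 0.188), so their numbers were read as paired, on the data alone. The main fit did not use this pairing, and the replicate number entered only as a block among the alternatives. Alternatives were DESeq2 1.42.0, other scalings, filters, aggregations and samples, the replicate number as a block, and each library or the strongest sgRNA left out. The table had 0 sample columns without a label.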

Additional observations from a re-analysis of the deposited data

How the results depend on the processing

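No member changed direction with a call on both sides under any setting, and the counts by rank aggregation stayed at 0 enriched and 0 depleted except with summed reads (3 enriched and 1 depleted in vehicle, 4 and 1 in pralatrexate, each against baseline) and with limma on gene means (1 and 3 enriched). Of 432 recomputed member values, 419 kept their call, 13 gained one by those aggregations, and 33 uncalled values changed sign. With scaling on non-targeting sgRNAs the member median became −0.27 in vehicle and −0.29 in pralatrexate against baseline, with 12 and 13 member sgRNAs lower and 0 higher in both. The share of all sgRNAs lower with that scaling is not given here. Relative to the non-targeting median 83.5% of all genes were lower in vehicle and 82% in pralatrexate, each against baseline. The 2 higher sgRNAs in vehicle became 1 with a minimum mean of 300 reads and 0 with scaling on the reference genes. They became 3 with DESeq2, which also called 1 lower, and 3 with only the vehicle and baseline libraries fitted. Leaving out 1 library gave 0 to 2 higher and 0 to 1 lower sgRNAs in vehicle, 1 to 5 higher and 0 to 1 lower in pralatrexate against baseline, and 5 to 8 members lower than non-targeting sgRNAs in vehicle.

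Set against the reference genes, a setting chosen after seeing the data, 1 member was lower in place of 8 in vehicle and in place of 6 in pralatrexate. LATS1 (0.049), MAP4K4 (0.015) and STK4 (0.016) in vehicle and STK3 (0.078) in pralatrexate then lay above 0, without a call. Of 351 values relative to non-targeting sgRNAs, 324 kept their call, 23 lost it on the same side of 0, and 4 lost it with a change of sign. The cause was not tested.

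With the replicate number as a block no member's call changed, and 3 sgRNAs were higher in vehicle in place of 2. Vehicle and baseline libraries of a number correlated at 0.0706, 0.0224 and 0.0615, above differently numbered ones at −0.0710 to 0.0111. Whether vehicle and baseline libraries were paired was not settled by these small values. Pralatrexate and baseline libraries of a number correlated at 0.0207, −0.0307 and −0.0065, within the range of differently numbered ones (−0.0427 to 0.0489). Precision was set by 3 libraries a group and a coefficient of variation of 13.2% between them.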
